A study of Arabidopsis thaliana with 22 samples.

Results

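The 10 genes described here carry out nitrate transport and nitrate reduction in *Arabidopsis thaliana*. They were taken by identifier, whatever their level, as 10 of the 33602 genes of the count table. The set holds the uptake genes *NRT1.1* (AT1G12110), *NRT2.1* (AT1G08090), *NRT2.2* (AT1G08100), *NRT2.4* (AT5G60770) and *NRT2.5* (AT1G12940), the long-distance transport genes *NRT1.5* (AT1G32450) and *NRT1.8* (AT4G21680), and the reductase genes *NIA1* (AT1G77760), *NIA2* (AT1G37130) and *NIR1* (AT2G15620). Of these, 7 had enough counts to be tested, while *NRT2.2*, *NRT2.4* and *NRT2.5* had too few and are given by their counts.

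RNA was sequenced from whole 10-day-old seedlings of the *lrx345* mutant and of the wild type (Col-0) after 0, 6, 24 and 72 h of NaCl. In the *lrx345* line 3 genes for leucine-rich repeat extensins of the cell wall, *LRX3*, *LRX4* and *LRX5*, are mutated together, and no other allele or agent is named for either genotype. There were 2 libraries for each genotype at 0 h and 3 for each genotype at every later time, 22 in all, and the methods call the replicates biological. The labels do not say whether they came from separate cultures, so p-values measure the spread between these libraries. The methods give 150 mM NaCl for 6 h, and the same dose was taken to hold at 24 and 72 h. No seedlings kept without salt were sampled at 6, 24 or 72 h, so hours of salt, plant age and time of day cannot be told apart in a change from 0 h. Because whole seedlings were pooled in bulk RNA, fewer cells of a type and less RNA per cell cannot be told apart either.

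Nitrate enters the root through low-affinity carriers and through high-affinity NRT2 carriers, which need the partner protein NRT3.1. Inside the root, NRT1.5 exports nitrate into the xylem towards the shoot, while NRT1.8 takes it back out of the xylem sap. Nitrate reductase, encoded by *NIA1* and *NIA2*, turns nitrate into nitrite in the cytosol, and nitrite reductase, encoded by *NIR1*, turns nitrite into ammonium in plastids.

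The total count per library ran between 7413461 and 15047080. *LRX3* (AT4G13340) and the other genes named for the mutant, AT3G24480 and AT4G18670, were lower in *lrx345* at all 4 times (adjusted p under 0.05 by edgeR's quasi-likelihood test) but were not at 0. For AT4G18670 the level ran from 5.09 to 12.6 FPKM over the *lrx345* libraries, against 36.0 to 70.0 FPKM over the wild-type libraries. AT3G24480 was less reduced, at 40.9 to 61.0 FPKM over the *lrx345* libraries and 61.4 to 124 FPKM over the wild-type libraries. FPKM here are fragments per kilobase of exon, scaled for library size, so levels can be set side by side between genes. As a check of tissue, 4 lists of 6 marker genes each were followed beside the nitrate genes, and no marker was at 0 in every library of any group. In *lrx345*, however, 2 of 6 root endodermis markers at 24 h and 1 at 72 h had at most 3 counts in each library. The sums below add FPKM, so the most abundant genes of a list weigh most. Mean counts over all libraries ran from 736 to 175102 among the leaf photosynthesis markers. Among root epidermis and hair markers they ran from 32.0 to 1005. Markers of the root epidermis and root hairs summed to 52.7 to 117 FPKM in *lrx345* and 96.5 to 101 FPKM in the wild type at 0 h. At 6 h they summed to 4.09 to 7.44 FPKM in *lrx345* and 34.1 to 44.5 FPKM in the wild type, and 5 of 6 were called lower in *lrx345* at 6, 24 and 72 h. Markers of leaf photosynthesis had lower sums in *lrx345* at all 4 times. At 0 h they summed to 14074.5 to 15949 FPKM in *lrx345* and 20132 to 20238 FPKM in the wild type, with 2 of 6 called lower. At 6 h the sums were 16366 to 18689 FPKM in *lrx345* and 21244 to 22887 FPKM in the wild type, with 1 of 6 called lower. At 24 h they were 19651 to 21246 FPKM in *lrx345* and 29129 to 33063 FPKM in the wild type. By 72 h they were 10167 to 12401 FPKM in *lrx345* and 24004 to 27466 FPKM in the wild type. All 6 were called lower in *lrx345* at 24 and 72 h, with a median of -0.62 at 24 h and -1.21 at 72 h on the log2 scale. Their part in the results on *NIA1*, *NIA2*, *NIR1* and *NRT1.1* below was not tested.

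**Figure D1:**
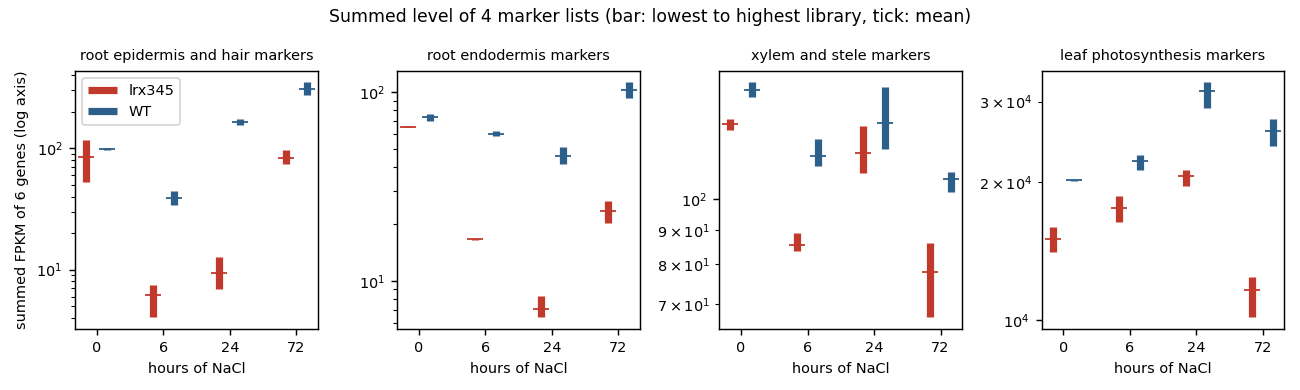
Summed FPKM of 4 lists of 6 marker genes (log axis) against hours of NaCl, for *lrx345* on the left and the wild type on the right of each time. Thick bars run from the lowest to the highest library and ticks mark the mean. Root epidermis and endodermis markers lie far apart between the genotypes at 6, 24 and 72 h, and xylem and stele markers overlap at 24 h. Leaf photosynthesis markers are lower in *lrx345* at 0, 6, 24 and 72 h.

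Upstream sequence is shown for the 4 genes on which the results below turn most, namely *NRT1.8* and *NRT2.1*, which moved over the widest range, and *NIA1* and *NIA2*, which encode the same enzyme but behaved differently. Each line is the 250 bases before the annotated start of the gene, read 5′ to 3′ on the strand of the gene from the TAIR10.1 sequence. Capitals mark matches, on either strand of the window, to any of 5 motifs that were searched, of which 4 are short and spelled out here. The core of the ABA-responsive element was written as ACGTG, and it also lies inside the G-box, which was searched as its own motif with the letters CACGTG. The core sequence to which TGA transcription factors are known to bind was written as TGACG. The core sequence known to be bound by repressors of the NIGT1 family was written as GAATC. The last motif was a longer form of the nitrate-responsive element. The windows are chr4:11519766-11520015 on the minus strand for *NRT1.8*, chr1:2523826-2524075 on the plus strand for *NRT2.1*, chr1:29239446-29239695 on the minus strand for *NIA1* and chr1:14158277-14158526 on the plus strand for *NIA2*.
NRT1.8: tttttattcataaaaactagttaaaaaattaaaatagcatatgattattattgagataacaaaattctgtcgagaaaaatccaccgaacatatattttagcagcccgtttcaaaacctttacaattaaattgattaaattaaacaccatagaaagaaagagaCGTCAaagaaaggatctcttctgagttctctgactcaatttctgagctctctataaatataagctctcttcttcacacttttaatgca
NRT2.1: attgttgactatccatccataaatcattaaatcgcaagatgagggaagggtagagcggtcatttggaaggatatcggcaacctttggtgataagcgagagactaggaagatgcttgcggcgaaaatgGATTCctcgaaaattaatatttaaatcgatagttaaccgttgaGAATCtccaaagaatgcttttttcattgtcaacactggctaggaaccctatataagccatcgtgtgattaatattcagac
NIA1: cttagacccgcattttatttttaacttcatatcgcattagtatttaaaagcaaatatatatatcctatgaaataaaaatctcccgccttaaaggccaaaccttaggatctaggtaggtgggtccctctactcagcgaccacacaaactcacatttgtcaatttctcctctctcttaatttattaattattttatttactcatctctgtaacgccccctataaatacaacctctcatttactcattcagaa
NIA2: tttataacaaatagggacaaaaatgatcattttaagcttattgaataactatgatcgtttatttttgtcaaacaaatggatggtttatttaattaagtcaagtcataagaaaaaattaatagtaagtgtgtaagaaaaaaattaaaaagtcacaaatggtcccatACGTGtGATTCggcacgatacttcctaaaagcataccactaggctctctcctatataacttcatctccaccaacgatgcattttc

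The *NRT1.8* window held 1 match to TGACG, and *NRT2.1* held 2 matches to GAATC. *NIA2* held ACGTG and, next to it, GAATC, while *NIA1* held none of these motifs. Among all 33322 gene windows of this length, 23.1% held ACGTG, 6.75% CACGTG, 19.7% TGACG and 40.2% GAATC, and 12 windows held the form of the nitrate-responsive element. Over the 10 genes, 1 window held ACGTG, 1 held TGACG, 6 held GAATC and none held CACGTG or the nitrate-responsive element form. All 4 high-affinity genes (*NRT2.1*, *NRT2.2*, *NRT2.4* and *NRT2.5*) were among the 6 with GAATC. These matches describe letters in the windows only.

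Reads were counted over exons without regard to strand. *NRT1.8* lies at chr4:11517353-11519765, and 44 of its 2146 exon bases, at its 3′ end, are shared with *CPL1* on the other strand. *CPL1* stood between 7.85 and 14.02 FPKM in every library. The other 9 genes shared no exon bases with a neighbour. *NRT2.1* (chr1:2524076-2526164) and *NRT2.2* (chr1:2527170-2529120) are neighbours with 88.8% identity over 1576 aligned exon bases and a longest exact stretch of 170 bases, so a part of their reads cannot be assigned to either. *NIA1* and *NIA2* share 73.9% identity with a longest exact stretch of 20 bases.

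**Figure D2:**
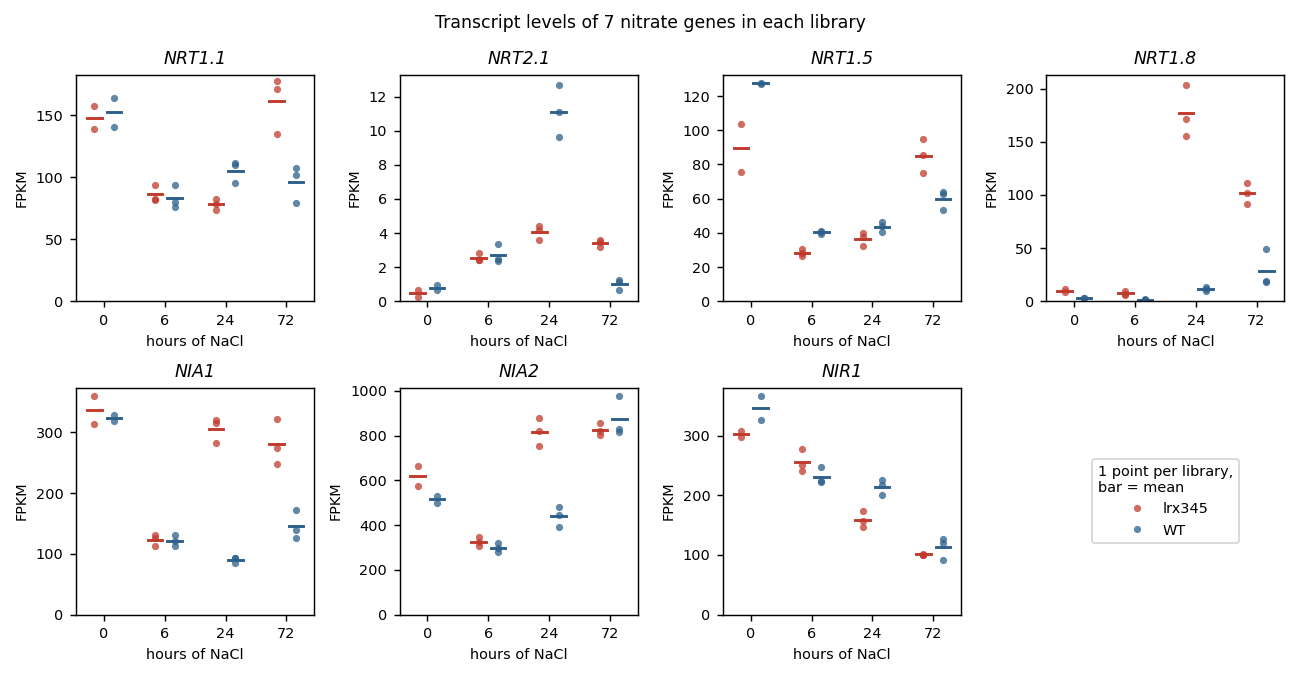
Level in FPKM of the 7 tested nitrate genes against hours of NaCl, with 1 point per library and a bar at the group mean, *lrx345* on the left and the wild type on the right of each time. *NRT1.8* in *lrx345* stands at 156 to 203 FPKM at 24 h, apart from every other group, and *NIA1* stands at 248 to 322 FPKM in *lrx345* and 84.1 to 172 FPKM in the wild type at 24 and 72 h.

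The first question was how the genotypes differed at each time. At 0 h, 1 of the 7 genes was called higher and 1 lower in *lrx345*, where 18% of all 21831 tested genes were called (10.0% higher and 8.02% lower). At 6 h the counts were again 1 higher and 1 lower, against 36.0% of all tested genes (18.3% higher and 17.7% lower). At 24 h, 3 genes were called higher and 3 lower, against 52.7% of all tested genes (24.3% higher and 28.4% lower). At 72 h, 5 were called higher and 0 lower, where 31.3% of all tested genes were called higher and 30.7% lower, or 62.1% in either direction. At 72 h 5 genes had an unadjusted p under 0.05 with edgeR, the same 5 that were called higher, and 5 with DESeq2. When a fold above 2 was also required, 1 gene was called at 0 h, 1 at 6 h, 3 at 24 h and 2 at 72 h, against 6.42%, 12.2%, 18% and 24.6% of all tested genes. With so many genes called and 7 examined, the number called says little about nitrate genes, and the size and direction of each are given below.

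*NRT1.8* showed the largest difference among the 7 tested genes at 0, 6 and 24 h, while at 72 h it and *NRT2.1* differed by about as much. It was higher in *lrx345* before salt and at every time after it, and most at 24 h. At 0 h its level was 8.43 and 11.7 FPKM in *lrx345*, against 3.31 and 2.75 FPKM in the wild type. At 6 h it was 9.82, 6.97 and 5.60 FPKM in *lrx345*, against 1.53, 1.82 and 1.13 FPKM in the wild type. No library of the wild type reached the lowest *lrx345* library at either time.

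At 24 h *NRT1.8* stood at 203, 156 and 172 FPKM in *lrx345*, against 11.1, 13.7 and 10.0 FPKM in the wild type. By 72 h it stood at 102, 91.4 and 111 FPKM in *lrx345*, against 48.7, 17.9 and 18.9 FPKM in the wild type. Wild-type replicate 1 at 72 h was well above the other 2 libraries of its group, yet still below all 3 *lrx345* libraries. The log2 fold change of *lrx345* over the wild type was 1.72 ± 0.39 at 0 h (SE; adjusted p = 0.00235, edgeR) and 2.31 ± 0.38 at 6 h (adjusted p = 3.46e-05, edgeR). It was 3.93 ± 0.28 at 24 h, a 15.3-fold difference (adjusted p = 4.86e-11, edgeR), and 1.82 ± 0.25 at 72 h (adjusted p = 1.27e-06, edgeR). Without wild-type replicate 1 the value at 72 h was 2.46 (adjusted p = 2.44e-11, edgeR).

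*NRT1.5*, the xylem-loading counterpart, went the other way at first. At 0 h it stood at 104 and 75.4 FPKM in *lrx345*, against 128 and 127 FPKM in the wild type. At 6 h it stood at 30.7, 28.02 and 26.6 FPKM in *lrx345*, against 41.1, 39.3 and 40.4 FPKM in the wild type. Every *lrx345* library lay below every wild-type library at both times. Xylem and stele markers also stood apart at 6 h, with sums of 83.7 to 88.9 FPKM in *lrx345* and 112 to 122 FPKM in the wild type, 4 of 6 called lower and a median of -0.36 on the log2 scale. The log2 fold change was -0.51 ± 0.13 at 0 h (adjusted p = 0.0071, edgeR) and -0.50 ± 0.11 at 6 h (adjusted p = 0.00107, edgeR). The call at 0 h was lost without *lrx345* replicate 2 (-0.29, adjusted p = 0.237, edgeR).

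At 24 h *NRT1.5* stood at 39.6, 37.7 and 32.4 FPKM in *lrx345*, against 44.1, 40.3 and 46.4 FPKM in the wild type. The difference of -0.25 ± 0.11 did not pass (adjusted p = 0.0616, edgeR), although the libraries did not overlap. It passed without wild-type replicate 2 (-0.31, adjusted p = 0.0444) or without *lrx345* replicate 1 (-0.31, adjusted p = 0.0439, both edgeR). At 72 h the order had turned, with 85.5, 94.8 and 74.8 FPKM in *lrx345*, against 63.0, 63.7 and 53.5 FPKM in the wild type. *NRT1.5* was then higher by 0.50 ± 0.11 on the log2 scale (adjusted p = 3.25e-04, edgeR).

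The ratio of *NRT1.8* to *NRT1.5* within a library put these together. At 0 h it was 0.0815 and 0.155 in *lrx345*, against 0.0260 and 0.0216 in the wild type. At 24 h it was 5.12, 4.12 and 5.29 in *lrx345*, against 0.252, 0.341 and 0.216 in the wild type. *NRT1.8* exceeded *NRT1.5* in all 3 *lrx345* libraries at 24 h and in 2 of 3 at 72 h, and in no wild-type library. The ratio differed by 4.19 on the log2 scale at 24 h (two-sided exact permutation test, p = 0.1, the smallest that 3 against 3 libraries can give). Xylem and stele markers summed to 109 to 128 FPKM in *lrx345* and 118 to 146 FPKM in the wild type at 24 h, with 2 of 6 called lower. At 72 h they summed to 67.0 to 86.1 FPKM in *lrx345* and 102 to 109 FPKM in the wild type, with 2 of 6 called higher and 3 lower. *PHO1* and *SKOR* belong to this list. Their part in these results was not tested.

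*NRT1.1*, a transporter of both low and high affinity that also senses nitrate, did not pass between genotypes before 24 h. At 0 h it stood at 157 and 139 FPKM in *lrx345*, against 141 and 164 FPKM in the wild type, and the libraries overlapped. It stood at 82.2, 82.9 and 94.0 FPKM in *lrx345* at 6 h, against 80.3, 76.0 and 93.5 FPKM in the wild type, again overlapping. The differences were -0.04 ± 0.14 and 0.05 ± 0.12 on the log2 scale at 0 and 6 h (adjusted p = 0.89 and 0.765, edgeR).

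Later *NRT1.1* separated in both directions. At 24 h it stood at 82.8, 73.4 and 78.2 FPKM in *lrx345*, against 95.2, 111 and 110 FPKM in the wild type. At 72 h it stood at 178, 135 and 171 FPKM in *lrx345*, against 79.7, 102 and 107 FPKM in the wild type. All *lrx345* libraries lay below the wild type at 24 h and above it at 72 h. The log2 fold change was -0.43 ± 0.12 at 24 h (adjusted p = 0.00383, edgeR) and 0.74 ± 0.12 at 72 h (adjusted p = 8.43e-06, edgeR).

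*NRT2.1*, the main high-affinity carrier of nitrate-fed roots, was a low-level transcript here. Its counts at 0 h were 19 and 6 in *lrx345*, against 18 and 25 in the wild type. At 6 h its level was 2.41, 2.39 and 2.86 FPKM in *lrx345*, against 3.37, 2.38 and 2.46 FPKM in the wild type. Neither difference passed, with -0.73 ± 0.39 at 0 h (adjusted p = 0.232) and -0.11 ± 0.21 at 6 h (adjusted p = 0.716, both edgeR). With so few counts the value at 0 h was -1.53 without *lrx345* replicate 1 and -0.31 without *lrx345* replicate 2.

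At 24 h the level of *NRT2.1* was 4.19, 3.61 and 4.43 FPKM in *lrx345*, against 12.7, 9.62 and 11.1 FPKM in the wild type. At 72 h it was 3.49, 3.21 and 3.57 FPKM in *lrx345*, against 0.632, 1.27 and 1.14 FPKM in the wild type. The wild type had a peak at 24 h, whereas the mutant held a similar level at both times. *NRT2.1* was thus lower in *lrx345* at 24 h by -1.46 ± 0.19 on the log2 scale (adjusted p = 7.13e-07, edgeR) and higher at 72 h by 1.77 ± 0.24 (adjusted p = 7.81e-07, edgeR). The root epidermis markers, from the tissue where *NRT2.1* is known to act, summed at 24 h to 6.90 to 12.6 FPKM in *lrx345* and 154 to 175 FPKM in the wild type. At 72 h the sums were 74.0 to 96.8 FPKM in *lrx345* and 272 to 348 FPKM in the wild type, when *NRT2.1* differed in the other direction. Root endodermis markers were likewise at 6.45 to 8.27 FPKM in *lrx345* and 41.8 to 50.9 FPKM in the wild type at 24 h. Their part in these results was not tested.

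The remaining high-affinity genes were at the edge of detection. *NRT2.2* had 6 counts over the 22 libraries, of which 1, 1 and 3 fell in *lrx345* and 0, 0 and 1 in the wild type at 72 h. *NRT2.4*, known as a carrier of starved roots and shoots, had 5, 8 and 6 counts in *lrx345* at 72 h, against 0, 1 and 1 in the wild type. *NRT2.5*, a carrier of long starvation, had 3, 5 and 5 counts in *lrx345* at 72 h, against 0, 0 and 0 in the wild type. In each of these genes every *lrx345* library at 72 h lay at or above the highest wild-type library. When genes with low counts were kept in the fit, *NRT2.4* and *NRT2.5* were called higher in *lrx345* at 72 h (adjusted p = 0.00317 and 0.00139) and *NRT2.2* was not (adjusted p = 0.217, edgeR). No fold is given for counts this low. At 24 h *NRT2.5* had 2, 7 and 1 counts in *lrx345* and 9, 2 and 3 in the wild type, which overlap. *NRT2.4* had 3 and 2 counts in *lrx345* and 0 and 0 in the wild type at 0 h, but 0, 0 and 0 against 1, 0 and 1 at 6 h. *NRT2.5* had 2, 3 and 3 counts against 1, 0 and 1 at 6 h, but 1 and 0 against 1 and 1 at 0 h. With low counts kept, none of these passed (adjusted p = 0.147 and 0.356 for *NRT2.4*, 0.202 and 0.954 for *NRT2.5*, edgeR).

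*NIA1* did not pass between the genotypes at 0 and 6 h and was then far higher in *lrx345*. At 0 h it stood at 314 and 360 FPKM in *lrx345*, against 318 and 329 FPKM in the wild type. At 6 h it stood at 113, 130 and 126 FPKM in *lrx345*, against 121, 113 and 131 FPKM in the wild type. Both sets of libraries overlapped, with differences of 0.06 ± 0.13 and 0.02 ± 0.11 on the log2 scale (adjusted p = 0.841 and 0.932, edgeR).

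At 24 h *NIA1* stood at 283, 315 and 321 FPKM in *lrx345*, against 84.1, 92.5 and 93.8 FPKM in the wild type. At 72 h it stood at 248, 322 and 274 FPKM in *lrx345*, against 127, 139 and 172 FPKM in the wild type. No libraries overlapped at these times. The difference was 1.76 ± 0.11 at 24 h, or 3.40-fold (adjusted p = 8.78e-12, edgeR), and 0.95 ± 0.11 at 72 h, or 1.93-fold (adjusted p = 1.02e-07, edgeR).

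*NIA2*, the more abundant reductase transcript in every library, passed between genotypes at 24 h only among the 4 times tested. It stood at 575 and 666 FPKM in *lrx345* at 0 h, against 499 and 532 FPKM in the wild type. The difference of 0.27 ± 0.12 did not pass (adjusted p = 0.131, edgeR), although the libraries did not overlap. At 24 h it stood at 755, 820 and 877 FPKM in *lrx345*, against 393, 482 and 444 FPKM in the wild type. This was a log2 difference of 0.89 ± 0.10, or 1.86-fold (adjusted p = 5.82e-08, edgeR), with no overlap. At 6 and 72 h the libraries overlapped, with differences of 0.13 ± 0.10 and -0.08 ± 0.10 (adjusted p = 0.312 and 0.491, edgeR).

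*NIR1* differed between genotypes at 24 h in the direction opposite to the nitrate reductase genes. It stood at 157, 147 and 174 FPKM in *lrx345*, against 199.97, 217 and 225 FPKM in the wild type, and was lower by -0.43 ± 0.10 on the log2 scale (adjusted p = 9.8e-04, edgeR). At 72 h it stood at 99.7, 100.2 and 102 FPKM in *lrx345*, against 92.3, 119 and 127 FPKM in the wild type. That difference of -0.16 ± 0.10 did not pass (adjusted p = 0.163, edgeR), but without wild-type replicate 1 it was -0.29 (adjusted p = 0.0109, edgeR). At 0 and 6 h the differences of -0.20 ± 0.12 and 0.15 ± 0.10 did not pass (adjusted p = 0.308 and 0.262, edgeR). At 0 h *NIR1* stood at 308 and 297 FPKM in *lrx345*, against 327 and 367 FPKM in the wild type, with no overlap.

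**Figure D3:**
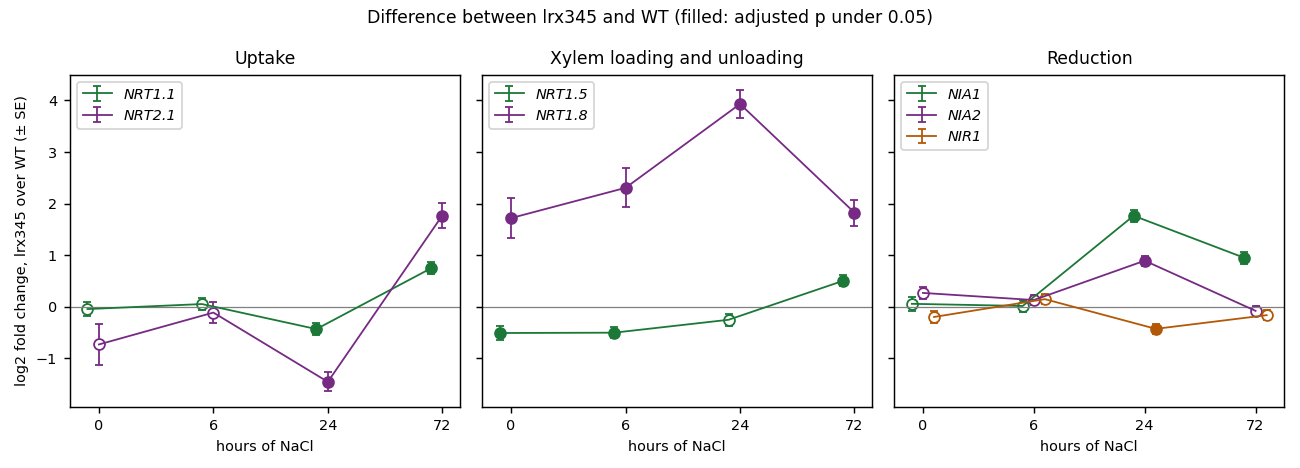
Log2 fold change of *lrx345* over the wild type (vertical axis, with SE) against hours of NaCl, in panels for uptake, xylem transport and reduction genes. Filled points have an adjusted p under 0.05. *NRT1.8* is filled at all 4 times with its highest value, 3.93, at 24 h, and *NRT1.1* and *NRT2.1* lie below 0 at 24 h and above 0 at 72 h.

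Ratios within libraries set the reductase genes against each other without a scaling between libraries. The ratio of *NIA2* to *NIA1* was 1.83 and 1.85 in *lrx345* at 0 h, against 1.57 and 1.62 in the wild type. At 24 h it was 2.67, 2.602 and 2.73 in *lrx345*, against 4.68, 5.21 and 4.74 in the wild type. By 72 h it was 3.32, 2.66 and 2.93 in *lrx345*, against 6.54, 5.87 and 5.68 in the wild type. The libraries of the genotypes separated fully at both later times, with *lrx345* lower by -0.87 and -1.03 on the log2 scale (two-sided exact permutation test, p = 0.1 each, the smallest possible). At 0 and 6 h the libraries also separated fully, but with *lrx345* higher. The difference was 0.21 at 0 h and 0.12 at 6 h (same exact test, p = 0.333 and 0.1, the smallest possible at each time).

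The summed level of *NIA1* and *NIA2* over that of *NIR1* was already higher before salt in *lrx345*, with 2.89 and 3.45 at 0 h, against 2.499 and 2.347 in the wild type. That was a log2 difference of 0.38 with no overlap (two-sided exact permutation test, p = 0.333, the smallest that 2 against 2 libraries can give). The ratio was 6.61, 7.74 and 6.87 in *lrx345* at 24 h, against 2.39, 2.65 and 2.39 in the wild type. At 72 h it was 10.7, 11.7 and 10.5 in *lrx345*, against 10.3, 7.98 and 9.07 in the wild type, and all *lrx345* libraries lay above the wild type at both times. The difference at 72 h was smaller than that at 0 h. At 24 h *lrx345* was higher by 1.51 and at 72 h by 0.28 on the log2 scale (two-sided exact permutation test, p = 0.1 each, the smallest possible). At 6 h the difference was -0.05 (exact permutation test, p = 0.8). These are ratios of transcript levels, and enzyme amounts or activities were not measured.

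**Figure D4:**
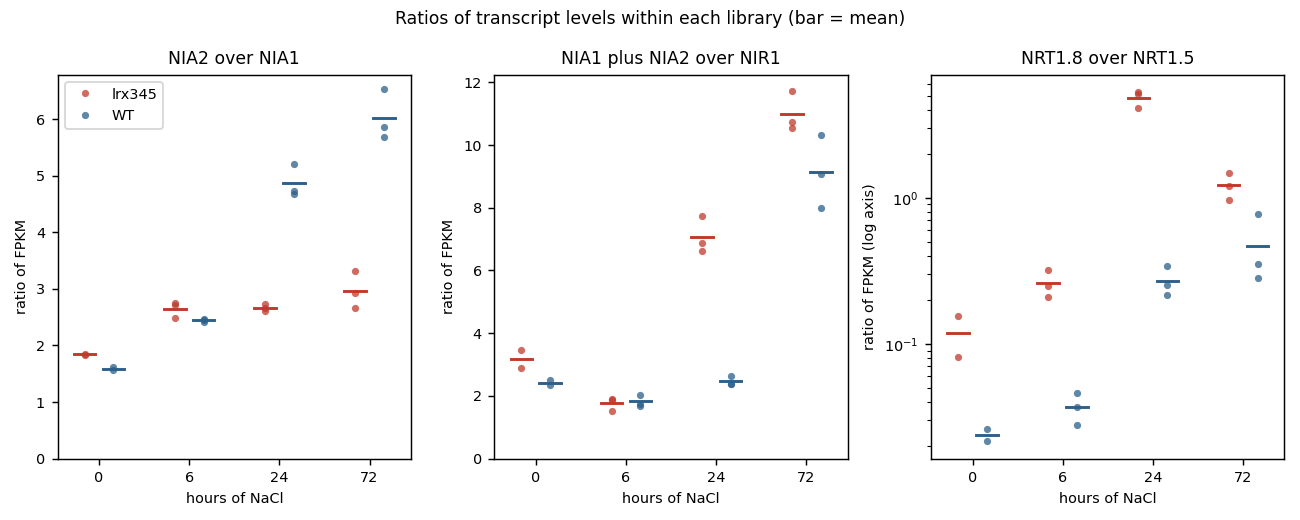
Ratios of FPKM within each library against hours of NaCl, 1 point per library with a bar at the mean, *lrx345* left of the wild type. The third panel has a log axis. The ratio of *NIA2* to *NIA1* lies between 2.602 and 3.32 in *lrx345* and between 4.68 and 6.54 in the wild type at 24 and 72 h.

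A second question was how each gene changed from 0 h within a genotype. In *lrx345* at 6 h, 1 gene was called higher and 4 lower, where 47.0% of all tested genes were called (23.9% higher and 23.1% lower). At 24 h 3 were higher and 3 lower in *lrx345*, against 53.9% of all tested genes (27.5% higher and 26.4% lower). At 72 h 3 were higher and 1 lower in *lrx345*, against 67.3% (34.4% higher and 33.0% lower). In the wild type at 6 h, 1 gene was higher and 5 lower, against 40.0% (19.3% higher and 20.8% lower). At 24 h 2 were higher and 4 lower in the wild type, against 31.5% (16.1% higher and 15.4% lower), and at 72 h 2 were higher and 4 lower, against 47.8% (24.7% higher and 23.2% lower). When a fold above 2 was also required, 3 genes were called in *lrx345* at each of 6, 24 and 72 h, against 17.1%, 20.7% and 32.5% of all tested genes. In the wild type 3, 4 and 4 genes were then called, against 12.7%, 8.00% and 14.6%. All changes from 0 h share the 2 libraries of that genotype at 0 h. Clock genes changed with time too. Of 9 clock genes at 6 h, 6 were called in *lrx345*, all higher, and in the wild type 5 were higher and 1 lower. At 24 h 6 were higher and 3 lower in *lrx345*, and 5 higher and 3 lower in the wild type. At 72 h 5 were higher and 2 lower in *lrx345*, and 4 higher and 4 lower in the wild type. Against 0 h, the wild type had 49.6-fold more transcript of the morning gene *CCA1* after 24 h and 64.2-fold more after 72 h (adjusted p = 1.23e-17 and 3.28e-18, edgeR). Between genotypes 5 clock genes were higher and 3 lower in *lrx345* at 6 h, 4 and 2 at 24 h, and 6 and 1 at 72 h. Of all tested genes 36.0%, 52.7% and 62.1% were called at those times. Of these shares, 18.3%, 24.3% and 31.3% were higher, and 17.7%, 28.4% and 30.7% lower. The part of the clock genes in these results was not tested.

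At 6 h *NRT1.5*, *NIA1*, *NIA2* and *NRT1.1* had fallen in both genotypes. Among all tested genes 23.1% were called lower in *lrx345* and 20.8% in the wild type, and the share called lower in both was not taken. *NRT1.5* fell by 1.65 in *lrx345* and by 1.66 in the wild type on the log2 scale at 6 h (adjusted p = 1.27e-10 and 1.09e-10, edgeR). *NIA1* fell by 1.45 in *lrx345* and by 1.41 in the wild type (adjusted p = 1.02e-09 and 2.21e-09). *NIA2* and *NRT1.1* fell in both genotypes as well, *NIA2* by 0.93 in *lrx345* and 0.79 in the wild type, and *NRT1.1* by 0.78 in *lrx345* and 0.88 in the wild type. *NRT2.1* rose at 6 h by 2.39 ± 0.31 in *lrx345* and by 1.78 ± 0.28 in the wild type (adjusted p = 1.25e-06 and 1.8e-05). Without *lrx345* replicate 1 at 0 h, which leaves a library with 6 counts, the *lrx345* value was 3.196. *NIR1* fell in the wild type (-0.59 ± 0.11, adjusted p = 1.51e-04), while -0.24 ± 0.11 in *lrx345* did not pass (adjusted p = 0.0764, all edgeR). Without *lrx345* replicate 1 at 6 h the *lrx345* value was -0.31 (adjusted p = 0.0364).

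*NRT1.8* did not pass at 6 h in either genotype, with -0.44 ± 0.32 in *lrx345* and -1.02 ± 0.45 in the wild type (adjusted p = 0.281 and 0.0733, edgeR).

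Whether the genotypes differed in these changes was tested as the change from 0 h in *lrx345* minus that in the wild type, in the same edgeR fit. By 6 h, 0 of the 7 genes were called, which compares with 8.64% of all tested genes (5.2% higher and 3.44% lower, and 4.69% with a fold above 2). An unadjusted count gave more, as 1 gene had an unadjusted p under 0.05 with edgeR and 1 with DESeq2.

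By 24 h *NRT1.8* had risen in both genotypes, by 4.15 ± 0.33 in *lrx345* and by 1.93 ± 0.36 in the wild type (adjusted p = 6.47e-10 and 2.91e-04, edgeR). The change was larger in *lrx345* by 2.21 ± 0.48 (adjusted p = 0.00215, edgeR). *NIA1* did not pass against 0 h in *lrx345* (-0.14 ± 0.12, adjusted p = 0.356) but fell in the wild type by 1.84 (adjusted p = 7.73e-11), and these changes differed by 1.71 ± 0.17 (adjusted p = 2.87e-07, all edgeR). *NIA2* rose in *lrx345* by 0.40 ± 0.11 (adjusted p = 0.00382), against -0.23 ± 0.11 in the wild type, which did not pass (adjusted p = 0.109). Its changes differed by 0.62 ± 0.15 (adjusted p = 0.00572, all edgeR). Without *lrx345* replicate 1 at 0 h the rise of *NIA2* in *lrx345* (0.29, adjusted p = 0.0938) and the difference in change (0.52, adjusted p = 0.0555) no longer passed. Those 3 genes were the ones called for a difference in change by 24 h, all higher in *lrx345*, where 17.8% of all tested genes were called (9.55% higher and 8.28% lower). With a fold above 2, 2 of the 7 were called, against 8.48% of all tested genes. Among all calls of that test 53.6% were higher in *lrx345* with TMM factors and 42.7% with upper-quartile factors.

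*NRT2.1* rose further by 24 h, by 3.06 ± 0.31 in *lrx345* and by 3.78 ± 0.25 in the wild type (adjusted p = 1.93e-08 and 1.25e-10, edgeR). Without *lrx345* replicate 1 at 0 h the *lrx345* value was 3.86. Its difference in change of -0.72 ± 0.45 did not pass (adjusted p = 0.296), nor did that of *NRT1.1* (-0.39 ± 0.19, adjusted p = 0.161, both edgeR), although both were lower in *lrx345* at 24 h itself. *NRT1.1* was below 0 h in *lrx345* by -0.92 ± 0.13 (adjusted p = 2.84e-06) and in the wild type by -0.53 ± 0.13 (adjusted p = 0.00294). The wild-type call was lost without its unnumbered library at 0 h (-0.42, adjusted p = 0.0725, all edgeR). *NIR1* fell by 0.93 in *lrx345* and by 0.70 in the wild type at 24 h (adjusted p = 2.53e-07 and 4.22e-05, edgeR). Its difference in change of -0.23 ± 0.16 did not pass (adjusted p = 0.346, edgeR). *NRT1.5* was still lower by -1.29 ± 0.12 in *lrx345* and -1.55 ± 0.12 in the wild type.

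**Figure D5:**
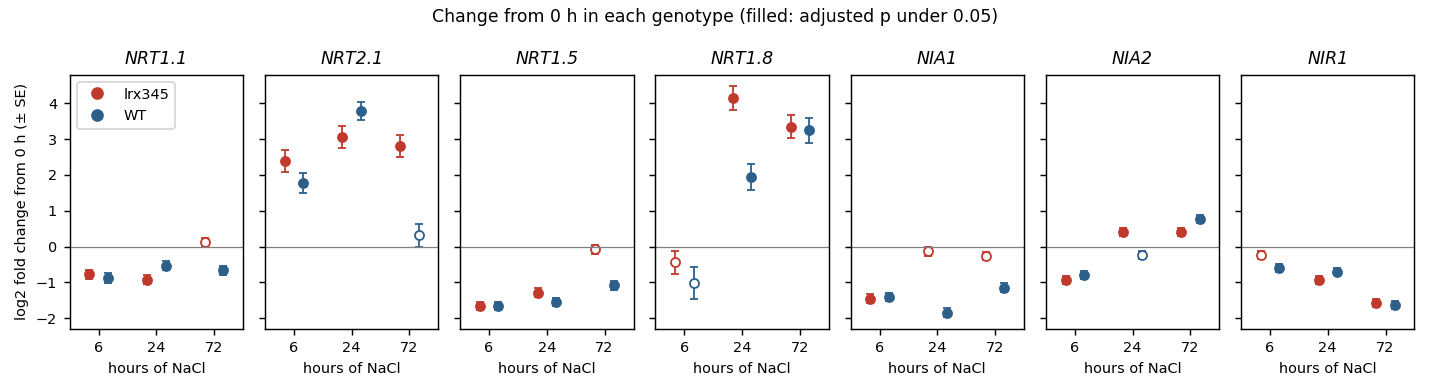
Log2 fold change from 0 h (vertical axis, with SE) of the 7 tested genes at 6, 24 and 72 h of NaCl, *lrx345* left of the wild type. Filled points have an adjusted p under 0.05. *NRT1.1*, *NRT1.5* and *NIA1* at 72 h are open and near 0 in *lrx345* and filled and below 0 in the wild type.

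At 72 h *NRT1.1*, *NRT1.5* and *NIA1* did not pass against 0 h in *lrx345* and were lower than at 0 h in the wild type. *NRT1.1* was at 0.12 ± 0.13 in *lrx345* (adjusted p = 0.415) and at -0.67 ± 0.13 in the wild type (adjusted p = 1.76e-04), relative to 0 h. For *NRT1.5* the values were -0.07 ± 0.12 in *lrx345* (adjusted p = 0.596) and -1.09 ± 0.12 in the wild type (adjusted p = 1.04e-07). For *NIA1* they were -0.26 ± 0.12 in *lrx345* (adjusted p = 0.0622) and -1.15 ± 0.12 in the wild type (adjusted p = 5.67e-08, all edgeR). The fall of *NIA1* in *lrx345* did pass without *lrx345* replicate 1 at 0 h (-0.36, adjusted p = 0.0462) or replicate 2 at 72 h (-0.36, adjusted p = 0.0143).

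The differences in change by 72 h were 0.79 ± 0.18 for *NRT1.1* (adjusted p = 0.00205), 1.01 ± 0.17 for *NRT1.5* (adjusted p = 7.41e-05) and 0.89 ± 0.17 for *NIA1* (adjusted p = 3.49e-04, all edgeR). *NRT2.1* was still higher than at 0 h in *lrx345* (2.81 ± 0.31, adjusted p = 2.77e-08), while 0.31 ± 0.31 in the wild type did not pass (adjusted p = 0.437), and these differed by 2.499 ± 0.458 (adjusted p = 1.99e-04, edgeR). Without *lrx345* replicate 1 at 0 h the *NRT2.1* values were 3.61 for the mutant and 3.30 for the difference. In all, 4 of the 7 genes were called for a difference in change by 72 h and all 4 were higher in *lrx345*, where 15.3% of all tested genes were called in that direction, 16.9% in the other and 32.2% in either. With a fold above 2, 2 of the 7 were called, against 15.2% of all tested genes.

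*NRT1.8*, *NIR1* and *NIA2* changed in both genotypes by 72 h, and their differences in change did not pass. *NRT1.8* rose by 3.35 ± 0.32 in *lrx345* and by 3.24 ± 0.36 in the wild type (adjusted p = 3.89e-09 and 1.24e-07, edgeR). Without wild-type replicate 1 at 72 h the wild-type rise was 2.601, and the difference in change was then 0.75 (adjusted p = 0.048), against 0.11 ± 0.47 with it (adjusted p = 0.9, edgeR). *NIR1* fell by 1.59 in *lrx345* and by 1.62 in the wild type (adjusted p = 1.7e-11 and 6.55e-11), with a difference in change of 0.03 ± 0.16 (adjusted p = 0.903, edgeR). *NIA2* rose by 0.41 ± 0.11 in *lrx345* and by 0.76 ± 0.11 in the wild type (adjusted p = 0.00191 and 5.57e-06). The *lrx345* rise was 0.31 without *lrx345* replicate 1 at 0 h (adjusted p = 0.0584), and the difference in change of -0.35 ± 0.15 did not pass (adjusted p = 0.0859, all edgeR).

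The order of mean levels also differed between groups. At 0 h *NIA2* was the highest in both genotypes (621 FPKM in *lrx345* and 516 FPKM in the wild type), and *NRT2.1* was the lowest of the 7 (0.459 FPKM in *lrx345* and 0.802 FPKM in the wild type). At 24 h *NRT1.8*, at 177 ± 24 FPKM (SD, n = 3), stood level with *NIR1*, at 159 ± 14 FPKM, in *lrx345*, and their libraries overlapped. In the wild type at 24 h *NRT1.8*, at 11.6 ± 1.9 FPKM, was close to *NRT2.1*, at 11.1 ± 1.5 FPKM (SD, n = 3 each), and far below *NIR1*, at 214 ± 13 FPKM. *NIA1* and *NRT1.1* in the wild type did not overlap at 6, 24 or 72 h, and were closest at 24 h, at 90.1 ± 5.2 and 105 ± 8.9 FPKM.

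Genes with the most similar pattern over the 8 group means were sought among 16833 genes with a mean count of at least 50, by Pearson's r on log2(FPKM + 0.5). The groups come from the same libraries, and these values describe likeness only. *NIR1* was most like *UPM1* (r = 0.991), which makes a precursor of siroheme, the cofactor of nitrite reductase. *UPM1* stood at 62.2 to 68.6 FPKM in *lrx345* and 70.7 to 83.1 FPKM in the wild type at 72 h, and at 235 to 255 FPKM in *lrx345* and 261 to 277 FPKM in the wild type at 0 h. *NRT1.5* was most like *ACL5* (r = 0.971), a polyamine synthase gene of the xylem, *PHO1* (r = 0.970), which exports phosphate to the xylem, and *SKOR* (r = 0.958), a channel that releases potassium into it.

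*NIA1* was most like *PEX11C* (r = 0.936), a gene of peroxisome growth, *BT2* (r = 0.933), a nitrate-responsive BTB protein gene, and *GLR1.1* (r = 0.916), a glutamate receptor-like gene. *NRT1.8* was most like *CRK2* (r = 0.988), a receptor-like kinase gene, *PTF1* (r = 0.987), a TCP transcription factor gene, and AT1G30720 (r = 0.983). Among the 7 genes themselves *NRT1.1* and *NRT1.5* were the most alike (r = 0.90 over 8 groups) and *NRT1.8* and *NIR1* the most opposed (r = -0.74).

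Other nitrate transporters and channels give the setting of the carriers. Of 20 listed, 19 were tested. Between genotypes 1 was higher and 4 lower in *lrx345* at 0 h, 6 higher and 5 lower at 6 h, 7 higher and 4 lower at 24 h, and 11 higher and 4 lower at 72 h. Among all tested genes 18%, 36.0%, 52.7% and 62.1% were called at these times. Split by direction, 10.0%, 18.3%, 24.3% and 31.3% of them were called higher, and 8.02%, 17.7%, 28.4% and 30.7% lower. The median log2 fold change of the list was -0.15 at 0 h, 0.057 at 6 h, 0.11 at 24 h and 0.89 at 72 h, against -0.042, -0.051, -0.077 and -0.0069 over all tested genes. *NRT3.1* (AT5G50200), the partner of the NRT2 carriers, stood at 147, 97.3 and 112 FPKM in *lrx345* at 72 h, against 25.9, 22.2 and 25.3 FPKM in the wild type. That was a difference of 2.27 ± 0.14 (adjusted p = 3.32e-12, edgeR). At 24 h *NRT3.1* stood at 70.1, 71.0 and 80.0 FPKM in *lrx345*, against 77.4, 74.1 and 64.2 FPKM in the wild type, overlapping (0.04 ± 0.13, adjusted p = 0.844).

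*NRT2.3* (AT5G60780), an NRT2 carrier outside the 10, had 301, 357 and 352 counts in *lrx345* at 72 h, against 18, 13 and 11 in the wild type, a log2 difference of 4.94 ± 0.21 (adjusted p = 5.59e-15, edgeR). Its difference was already 2.39 ± 0.30 at 6 h and 2.16 ± 0.25 at 24 h (adjusted p = 8.23e-07 and 1.2e-07). *NRT1.7*, which loads nitrate into the phloem of old leaves, stood at 144 to 174 FPKM in *lrx345* and 45.4 to 47.0 FPKM in the wild type at 24 h (1.78 ± 0.09, adjusted p = 4.2e-13). *NAXT1*, a nitrate efflux carrier of roots, was higher in *lrx345* at 6 and 24 h (1.53 ± 0.14 and 1.74 ± 0.14, adjusted p = 1.32e-08 and 6.44e-10), as was *SLAH2*, a nitrate-selective anion channel, at 6 h (1.06 ± 0.16, adjusted p = 1.58e-05). AT3G45680 was lower in *lrx345* at 6 h (-1.24 ± 0.19, adjusted p = 1.74e-05) and higher at 72 h (1.37 ± 0.20, adjusted p = 4.08e-06). *NRT1.11* and *NRT1.12*, which pass nitrate to growing leaves, were lower in *lrx345* at 72 h by -1.75 ± 0.14 and -1.60 ± 0.12 (adjusted p = 2.04e-10 and 1.48e-10, all edgeR). *NRT1.11* was also lower at 0 h (-1.21 ± 0.15, adjusted p = 3.43e-06) and at 24 h (-1.12 ± 0.14, adjusted p = 4.35e-07).

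Of 24 regulators of the nitrate response, all tested, 1 was higher and 4 lower in *lrx345* at 0 h, 7 higher and 2 lower at 6 h, 9 higher and 4 lower at 24 h, and 13 higher and 3 lower at 72 h. Taken in either direction, these counts lie near the 18%, 36.0%, 52.7% and 62.1% of all tested genes called at the same times. By direction, 10.0%, 18.3%, 24.3% and 31.3% of all tested genes were called higher, and 8.02%, 17.7%, 28.4% and 30.7% lower. At 6, 24 and 72 h the calls of the list lay more on the higher side than those of all tested genes. The list's median was -0.19, 0.13, 0.16 and 0.36 on the log2 scale at 0, 6, 24 and 72 h. *BT2* stood at 68.5 to 92.2 FPKM in *lrx345* and 10.3 to 11.7 FPKM in the wild type at 24 h (2.84 ± 0.21, adjusted p = 1.09e-10), and was still higher at 72 h (1.55 ± 0.19, adjusted p = 1.98e-07). *BT1*, its close relative, was lower in *lrx345* at 0 h (-1.15 ± 0.18, adjusted p = 4.07e-05) and higher at 6, 24 and 72 h, by 1.41 ± 0.14, 2.37 ± 0.16 and 2.298 ± 0.143 (adjusted p = 5.33e-08, 1.6e-11 and 3.75e-12, edgeR). *CPK32*, a calcium-dependent kinase that acts in nitrate signalling, was higher by 1.07 ± 0.13 at 6 h and by 2.31 ± 0.14 at 24 h (adjusted p = 9.18e-07 and 3.08e-12). *NLP8*, which mediates the nitrate response of seeds, was higher at 72 h (1.63 ± 0.12, adjusted p = 5.39e-11). *HRS1*, a NIGT1-type repressor, was lower at 72 h (-1.53 ± 0.14, adjusted p = 2.61e-09), and AT3G25790 was lower at 24 h (-1.22 ± 0.32, adjusted p = 0.00293, all edgeR).

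Of 11 genes that supply cofactor and reducing power to the reductases, 1 was called at 6 h, higher in *lrx345*, 1 was higher and 4 lower at 24 h, and 3 higher and 3 lower at 72 h, all smaller shares than the 36.0%, 52.7% and 62.1% of all tested genes called at these times. *RFNR2*, a root ferredoxin-NADP reductase, and *G6PD3*, a plastid glucose-6-phosphate dehydrogenase, were lower in *lrx345* at 24 h by -1.46 ± 0.12 and -1.11 ± 0.11 (adjusted p = 5.42e-10 and 1.42e-08, edgeR). *RFNR2* stood then at 42.2 to 49.8 FPKM in *lrx345* and 116 to 131 FPKM in the wild type. Both went the way of *NIR1* and against *NIA1* and *NIA2* at that time.

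Of 15 genes of ammonium assimilation, 3 were higher and 2 lower in *lrx345* at 0 h, 3 and 3 at 6 h, 6 and 6 at 24 h, and 7 and 3 at 72 h, where 18%, 36.0%, 52.7% and 62.1% of all tested genes were called. Of all tested genes, 10.0%, 18.3%, 24.3% and 31.3% were called higher, and 8.02%, 17.7%, 28.4% and 30.7% lower. *ASN1*, an asparagine synthetase gene of dark and starved tissue, stood at 239.9 to 370.2 FPKM in *lrx345* and 72.4 to 91.3 FPKM in the wild type at 72 h. It was lower in *lrx345* at 0 h (-1.47 ± 0.25, adjusted p = 1.58e-04) and higher at 6, 24 and 72 h, by 2.91 ± 0.17, 2.04 ± 0.17 and 1.86 ± 0.16 (adjusted p = 8.77e-12, 4.71e-10 and 7.95e-10). *GDH2*, a glutamate dehydrogenase gene, was higher at 24 h (1.41 ± 0.13, adjusted p = 3.44e-09). Among ammonium transporters, 5 of 6 were tested, and *AMT1;3*, a root carrier, was lower in *lrx345* at 0 and 24 h (-1.32 ± 0.27 and -2.64 ± 0.29, adjusted p = 8.18e-04 and 8.13e-08). *AMT1;2* was lower at 24 h (-1.09 ± 0.20, adjusted p = 6.19e-05) and higher at 72 h (1.201 ± 0.150, adjusted p = 3.29e-07), the signs of *NRT1.1* and *NRT2.1* at those times. *AMT2;1* was higher at 24 h (1.26 ± 0.13, adjusted p = 2.51e-08, all edgeR).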

How the data were processed

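Per the labels, RNA came from 22 libraries of seedlings. The deposited values are raw counts of fragments per gene, made by the authors with featureCounts 1.4.6 over exons of the Ensembl TAIR10 annotation, in pairs and without strand, after mapping to TAIR10 with TopHat2. One wild-type library at 0 h has different numbers in the table and the labels and was used without a number.

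Tests used edgeR 4.0.16 in R 4.3.3. Its filter on low counts (filterByExpr) kept 21831 genes, library sizes were scaled by TMM, and 1 quasi-likelihood model was fitted to the 8 groups, with Benjamini-Hochberg adjustment over all tested genes and calls at an adjusted p under 0.05. SE is the log2 fold change divided by the square root of F. FPKM were computed from counts, exon lengths and scaled library sizes. Chi-square per degree of freedom between replicates ran from 2.46 to 14.5, so none was a duplicate. The code was tested on simulated data.

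Exon models were compared with the TAIR10.1 annotation (RefSeq): 32834 of 32835 shared nuclear genes overlapped in position. The sequences come from TAIR10.1. The 10 genes and all lists were chosen with earlier results of these data known. All 10 were named, and from 5 pathway lists up to 3 genes per direction and time with fold above 2 and a mean count of at least 50, plus *NRT3.1*. *CPL1*, *UPM1*, *PHO1*, *SKOR* and the other similar genes were named for overlap or likeness. Alternatives were DESeq2 1.42.0, upper-quartile factors, no filter, a mean count of at least 20, a replicate block, only the groups compared, a fold above 2 and leaving out each library.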

Additional observations from a re-analysis of the deposited data

Results flagged for a closer look

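For 7 results the change from 0 h differed between the genotypes by a test of the difference itself in the edgeR fit. Values are the log2 change in *lrx345* minus that in the wild type. By 24 h the difference was 2.21 for *NRT1.8* (change of 4.15 in *lrx345* and 1.93 in the wild type, adjusted p = 0.00215), 1.71 for *NIA1* (-0.14 in *lrx345* and -1.84 in the wild type, adjusted p = 2.87e-07) and 0.62 for *NIA2* (0.40 in *lrx345* and -0.23 in the wild type, adjusted p = 0.00572). The *NIA2* difference did not pass without *lrx345* replicate 1 at 0 h (0.52, adjusted p = 0.0555).

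By 72 h the difference was 0.79 for *NRT1.1* (0.12 in *lrx345* and -0.67 in the wild type, adjusted p = 0.00205), 1.01 for *NRT1.5* (-0.07 in *lrx345* and -1.09 in the wild type, adjusted p = 7.41e-05), 2.499 for *NRT2.1* (2.81 in *lrx345* and 0.31 in the wild type, adjusted p = 1.99e-04) and 0.89 for *NIA1* (-0.26 in *lrx345* and -1.15 in the wild type, adjusted p = 3.49e-04). Each p-value is edgeR's with Benjamini-Hochberg adjustment over 21831 genes.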

How the results depend on the processing

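Over 960 recomputed log2 fold changes of single genes, 912 kept direction and side of the threshold. The counts of called genes moved by over 1.5 times in 10 of 173 recomputations. With a fold above 2 beside the adjusted p, 1 gene was called between genotypes at 0 h, 1 at 6 h, 3 at 24 h and 2 at 72 h, and in the change from 0 h 3 were called at 6 h in each genotype, 3 in *lrx345* at 24 h and 2 for the difference in change by 72 h. Leaving out each library gave 1 to 2 called genes between genotypes at 0 h.

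Deviations of same-numbered libraries correlated by 0.101, 0.0835 and 0.0820 at 6 h, where all differently numbered ones lay between -0.066 and -0.020. At 24 and 72 h the same-numbered values ran from -0.135 to 0.054 and the others from -0.061 to 0.165. Deviations from a group mean cancel within the group, so these values are not independent of each other. Differently numbered libraries correlated by as much at 24 and 72 h. Whether the replicate numbers mark a pairing was not tested. With the replicate number as a block, which drops the unnumbered library, 1 gene was called at 0 h, and *NRT1.5* at 0 h was -0.47 (adjusted p = 0.0536), while *NRT1.1* and *NIA1* at 0 h changed sign to 0.088 and -0.00225. Upper-quartile factors shifted the median of all genes by -0.10 for *lrx345* at 24 h and by -0.14 at 72 h against 0 h. They turned *NIA1* between genotypes at 6 h to -0.0050 and *NRT1.1* in *lrx345* at 72 h to -0.024. Leaving out single libraries gave ranges across 0 for values that had not passed: between genotypes *NRT1.1* from -0.15 to 0.071 and *NIA1* from -0.035 to 0.15 at 0 h; *NRT1.1* from -0.013 to 0.14, *NRT2.1* from -0.20 to 0.088 and *NIA1* from -0.037 to 0.082 at 6 h; *NIA2* from -0.12 to 0.0099 at 72 h. In *lrx345* against 0 h, *NIA1* at 24 h ran from -0.23 to 0.010 and *NRT1.5* at 72 h from -0.29 to 0.17. The difference in change ran from -1.10 to 0.074 for *NRT2.1* by 24 h and from -0.14 to 0.75 for *NRT1.8* by 72 h. The cause was not tested. Calls gained included *NRT1.8* in the wild type at 6 h (-1.01, adjusted p = 0.0315) and the *NIA2* difference in change by 72 h (-0.37, adjusted p = 0.0393), both with DESeq2, and with upper-quartile factors *NRT1.5* at 24 h (-0.34, adjusted p = 0.0132) and *NIR1* at 72 h (-0.26, adjusted p = 0.0249) between genotypes, and *NIA1* in *lrx345* at 72 h against 0 h (-0.40, adjusted p = 0.00558). *NRT1.1* in the wild type at 24 h was lost with the block (-0.45, adjusted p = 0.051). With no filter on low counts 7 genes were called between genotypes at 72 h, *NRT2.4* and *NRT2.5* among them. Depth limits these and *NRT2.2*, whose 6 counts allow no comparison, and 2 libraries a group limit every change from 0 h.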
